A study of Mus musculus with 6 samples.

Results

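The genes described here are those by which a mouse macrophage presents peptides to helper T cells and gives the second signal that these T cells need. They were chosen by name: H2-Aa, H2-Ab1, H2-Eb1, H2-DMa, H2-DMb1, Cd74, Ciita, Cd40, Cd80 and Cd86. Of these 10 genes, 9 had a probe set that names a single gene, among 22180 genes measured in all. The probe set of Cd74 also names a microRNA gene inside the same locus, so Cd74 was not analysed here. Each of the 9 had a single such probe set.

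Gene expression was measured on 6 Affymetrix arrays, 2 for each of 3 groups of sorted cells from C57Bl/6 bone marrow. All cultures first spent 5 days in 20 ng/ml M-CSF, the growth factor that turns marrow precursors into macrophages. For the next 6 days 1 group received M-CSF at 50 ng/ml (called M-CSF). Another received FSL-1 at 20 ng/ml (FSL-1). The last received the same dose of FSL-1 plus nutlin-3a at 10 µM (FSL-1 + nutlin-3a, called the combination below). FSL-1 is a synthetic lipopeptide agonist of TLR2 and TLR6, and the series calls macrophages grown this way multinucleated giant cells. Nutlin-3a keeps Mdm2 from binding p53 and so raises active p53. The labels do not say whether M-CSF stayed in the FSL-1 cultures. In the comparisons with M-CSF, added FSL-1 and lost M-CSF therefore cannot be told apart. Also not labelled are the gate used in the sort, the share of cells with many nuclei, and whether replicates came from separate animals. The p-values therefore reflect the spread among these arrays alone, and that spread may be technical. No genetic change is labelled in any group.

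MHC class II molecules are pairs of an alpha and a beta chain. They load peptides in endosomes with the help of the invariant chain (Cd74) and the editor H2-DM. Ciita, the class II coactivator, has no DNA contact of its own and works through the RFX, CREB and NF-Y proteins bound at a shared promoter module. A T cell that meets its peptide also needs CD28 to be engaged by CD80 or CD86, and CD40 on the macrophage receives the T cell's CD40 ligand in return. In C57BL/6 mice the alpha chain gene H2-Ea is a pseudogene, so the H2-Eb1 chain lacks its usual partner and I-A, made of H2-Aa and H2-Ab1, is the class II molecule these cells can display.

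All levels below are log2 expression values of a probe set, on which a step of 1 is a doubling. The median over all genes was 5.50 and that of probe sets that name no gene was 4.25. The background level of the arrays is unknown, and levels of different genes are not comparable. A change passed when limma gave a Benjamini-Hochberg adjusted p under 0.05 over all genes. Replicate arrays correlated at 0.9929 to 0.9951 across genes, and arrays of different groups at 0.9788 to 0.9858. The 11 measured macrophage markers averaged 10.50 to 10.88 on the 6 arrays, and 10 of them were above the median of all genes in every group. The exception was Cd163, with group means of 5.45, 5.23 and 5.04.

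Among the members, 3 of 9 changed in at least 1 comparison, where 14.5% of all genes did. H2-Aa was lower in both FSL-1 groups than in M-CSF. Cd86 rose with FSL-1 and fell below its M-CSF level when nutlin-3a was added. Cd80, which like Cd86 encodes a ligand of CD28, was higher with nutlin-3a. The other 6 members passed in none of the 3 comparisons.

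**Figure D1:**
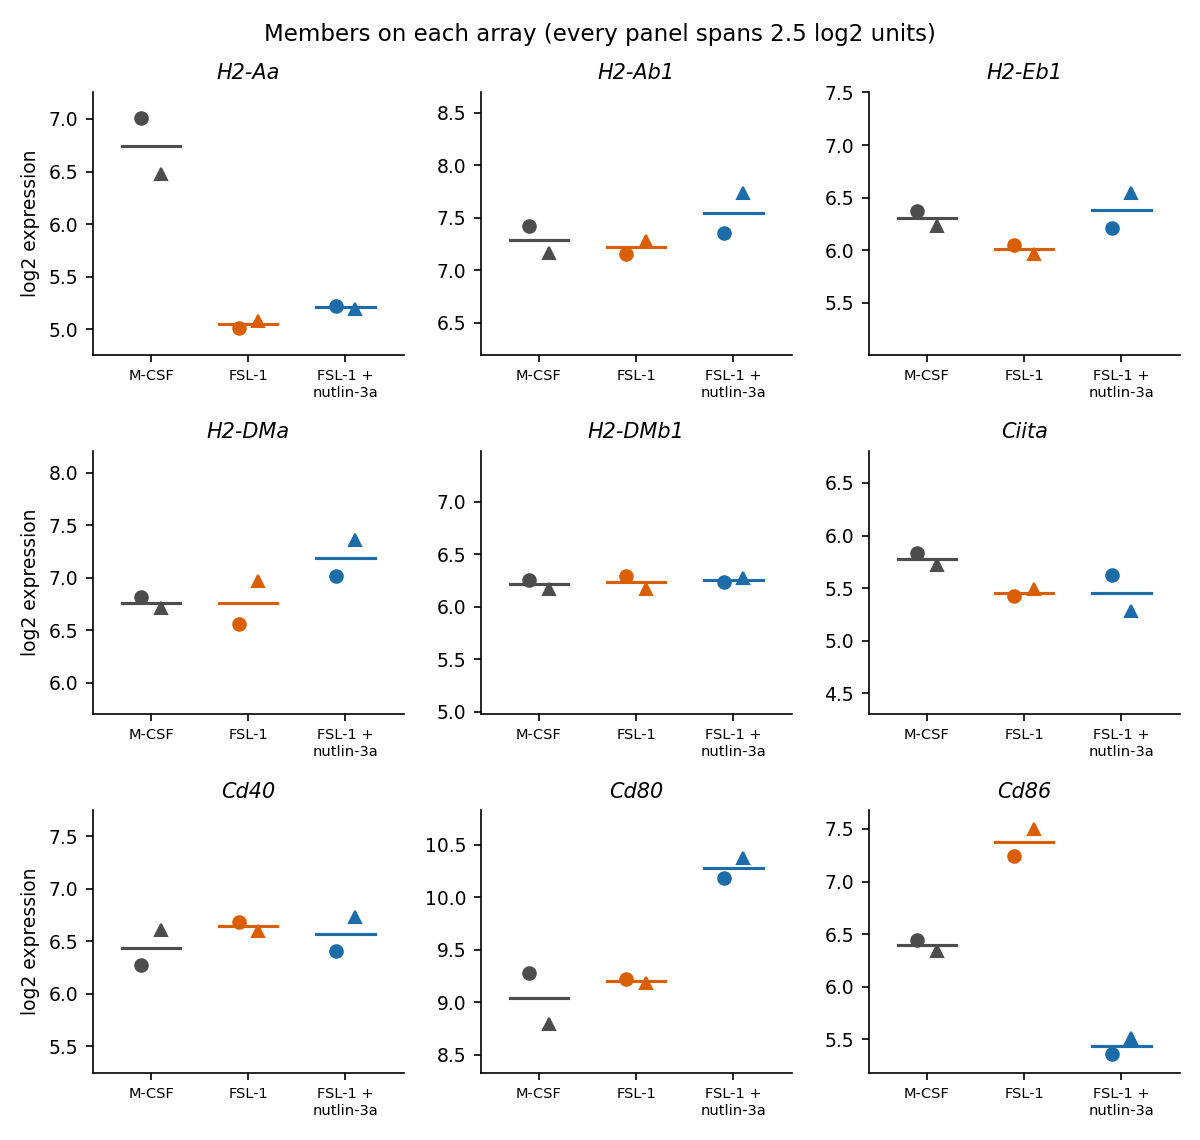
Log2 expression of the 9 members on each of the 6 arrays, with replicate 1 as circles, replicate 2 as triangles and horizontal lines at the group means (n = 2). H2-Aa lies between 6.47 and 7.01 in M-CSF and between 5.01 and 5.22 on the other 4 arrays, while Cd80 and Cd86 move in opposite directions with nutlin-3a.

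The promoter module through which Ciita acts is shown for those class II members of the RefSeq promoter table whose windows held a match. A gene that moved can there be set beside those that did not pass. Of the 9 members, 5 are in that table (H2-Aa, H2-Eb1, H2-DMa, H2-DMb1 and Cd80). The lines give the 120 bases before the annotated start, on the gene's own strand, from GRCm38.p6. H2-Aa is at chr17:34287824-34287943 (minus strand), H2-Eb1 at chr17:34305747-34305866 (plus strand) and H2-DMb1 at chr17:34153071-34153190 (plus strand). Capitals mark matches, on either strand, to an X1 core (AGNAACNG), an X2 core (TGACG) or a Y core (GATTGG).
H2-Aa: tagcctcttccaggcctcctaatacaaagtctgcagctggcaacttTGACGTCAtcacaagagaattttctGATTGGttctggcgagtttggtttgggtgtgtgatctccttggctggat
H2-Eb1: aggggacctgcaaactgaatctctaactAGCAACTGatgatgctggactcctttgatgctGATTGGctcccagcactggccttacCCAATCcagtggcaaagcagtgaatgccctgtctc
H2-DMb1: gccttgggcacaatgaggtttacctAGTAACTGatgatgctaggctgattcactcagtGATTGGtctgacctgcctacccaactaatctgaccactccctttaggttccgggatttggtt

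The Y core, the CCAAT-type element read by NF-Y, begins 49 bases before the start in H2-Aa, 60 in H2-Eb1 and 62 in H2-DMb1. Upstream of it H2-Aa carries the X2 core on both strands, overlapping, while H2-Eb1 and H2-DMb1 carry the X1 core, 92 and 95 bases before the start. A second, reversed Y core lies 35 bases before the start of H2-Eb1. A Y core is present in 9.67% of the 32851 promoters of the table over the same 120 bases, an X1 core in 7.09%, an X2 core in 11.7%, and a Y core together with either X core in 1.98%. The 3 windows were printed for their matches, so that each carries a Y core with an X core follows from that choice. The X core is X2 in H2-Aa and X1 in H2-Eb1 and H2-DMb1. Of these 3 genes only H2-Aa passed in a comparison, and a role of the module was not tested. The windows of H2-DMa (2 in the table) and Cd80 held no match to these motifs. They precede starts inside the annotated gene span rather than at its outer end, unlike the 3 printed windows, so the promoter at the outer end was not read for these genes.

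H2-Aa encodes the alpha chain of I-A. Its level was 7.01 and 6.47 on the M-CSF arrays, 5.01 and 5.08 on the FSL-1 arrays, and 5.22 and 5.19 on the combination arrays. Both M-CSF arrays were above all 4 others, and the M-CSF pair was the least alike. With FSL-1 the gene was 3.24-fold lower, from 6.74 ± 0.38 to 5.05 ± 0.05 (SD, n = 2 each), a log2 change of -1.69 (SE 0.174, limma adjusted p = 0.00142). Against M-CSF it was also 2.89-fold lower in the combination (log2 change -1.53, adjusted p = 0.00141). Nutlin-3a itself moved it by 0.16 (95% interval -0.24 to 0.56, adjusted p = 0.667). The levels in both FSL-1 groups lie under the median of all genes. In RNA pooled from many cells, fewer cells that carry a transcript and less of it per cell cannot be told apart.

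H2-Ab1, the beta chain that pairs with H2-Aa, did not pass in any comparison. It had 7.42 and 7.17 in M-CSF, 7.16 and 7.28 in FSL-1, and 7.36 and 7.73 in the combination. The M-CSF and FSL-1 arrays overlapped, and the change was -0.07 (95% interval -0.44 to 0.30, adjusted p = 0.867). This interval does not reach the fall of H2-Aa, whose own interval ran from -2.10 to -1.29. The log2 difference H2-Ab1 minus H2-Aa was 0.41 and 0.70 on the M-CSF arrays, 2.15 and 2.20 on the FSL-1 arrays, and 2.13 and 2.54 on the combination arrays. Its rise of 1.62 with FSL-1 had an exact two-sided permutation p of 0.333, the smallest that 2 against 2 arrays allow, over 3 member pairs compared in the same way. At that floor the permutation test cannot show an unequal change of the chains. On these arrays H2-Aa fell with FSL-1 and H2-Ab1 did not pass, each read by a single probe set.

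H2-Eb1, the beta chain of I-E, had 6.38 and 6.23 in M-CSF, 6.05 and 5.96 in FSL-1, and 6.21 and 6.55 in the combination. Its FSL-1 arrays were the lowest, without overlap, but the changes did not pass (-0.30 with FSL-1, adjusted p = 0.295, and 0.37 with nutlin-3a, adjusted p = 0.184). The pseudogene H2-Ea had 4.49 to 4.97 over the 6 arrays, under the median of all genes, with a change of -0.13 with FSL-1 (adjusted p = 0.775).

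Neither chain of the peptide editor passed in any comparison. H2-DMb1, the beta chain of the editor H2-DM, spanned only 6.17 to 6.30 over the 6 arrays, and its change with FSL-1 was 0.02 (95% interval -0.25 to 0.29). H2-DMa, the alpha chain, had 6.81 and 6.71 in M-CSF, 6.56 and 6.97 in FSL-1, and 7.01 and 7.36 in the combination. Its arrays with nutlin-3a were the highest, but the change of 0.42 did not pass (95% interval 0.02 to 0.83, adjusted p = 0.216). H2-DMb2, a near-identical copy of H2-DMb1 whose transcripts may share probes with it, and the editor's inhibitors H2-Oa and H2-Ob did not pass either. With FSL-1 they had log2 changes of -0.07, 0.40 and 0.18.

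Ciita, the coactivator, had 5.83 and 5.72 in M-CSF, 5.43 and 5.49 in FSL-1, and 5.62 and 5.28 in the combination. Both M-CSF arrays were above the others, as for H2-Aa. The change with FSL-1, -0.32 (SE 0.142, 95% interval -0.65 to 0.01), did not pass (adjusted p = 0.25), and neither did that against M-CSF in the nutlin-3a group (-0.33, adjusted p = 0.213). Ciita was near the median of all genes in every group. Across the 6 arrays the Pearson correlation of H2-Aa was 0.84 with Ciita, -0.08 with H2-Ab1 and 0.36 with H2-Eb1. That of Ciita was -0.41 with H2-Ab1, -0.04 with H2-Eb1, -0.48 with H2-DMa and -0.37 with H2-DMb1. These are descriptions over 6 arrays in 3 groups, which share the group differences.

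Cd86, a ligand of CD28 and CTLA-4, showed the largest response of the members to nutlin-3a. It had 6.44 and 6.34 in M-CSF, 7.24 and 7.50 in FSL-1, and 5.36 and 5.51 in the combination. The 3 groups did not overlap, with FSL-1 highest and the combination lowest. With FSL-1 it was 1.97-fold higher than in M-CSF, by 0.98 (SE 0.135, limma adjusted p = 0.00564). Without FSL-1 replicate 2 that change was 0.85 and did not pass (adjusted p = 0.0529). Added nutlin-3a lowered it 3.83-fold, a log2 change of -1.94 (SE 0.135, adjusted p = 0.000344), and this held without any 1 of the 4 compared arrays (-2.07 to -1.81). It was then also 1.94-fold below M-CSF (log2 change -0.96, adjusted p = 0.00394). The combination mean of Cd86, 5.44, lies just under the median of all genes, 5.50.

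Cd80, the other CD28 and CTLA-4 ligand, had 9.28 and 8.79 in M-CSF, 9.22 and 9.18 in FSL-1, and 10.18 and 10.37 in the combination. Both nutlin-3a arrays were above the other 4, while M-CSF and FSL-1 overlapped. Its change from M-CSF to FSL-1 was 0.17 (95% interval -0.23 to 0.56, adjusted p = 0.669). With nutlin-3a it rose 2.10-fold over FSL-1, from 9.20 ± 0.03 to 10.28 ± 0.13 (log2 change 1.07, SE 0.172, adjusted p = 0.0118), and it stood 2.36-fold over M-CSF (log2 change 1.24, adjusted p = 0.00364). The rise over FSL-1 did not pass without FSL-1 replicate 1 (1.09, adjusted p = 0.0797), FSL-1 replicate 2 (1.05, adjusted p = 0.0906) or combination replicate 2 (0.98, adjusted p = 0.0728). The one over M-CSF did pass without any 1 of its 4 arrays.

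The log2 difference Cd80 minus Cd86 was 2.84 and 2.45 on the M-CSF arrays, 1.98 and 1.68 with FSL-1, and 4.83 and 4.85 with the combination. The groups did not overlap. Nutlin-3a moved this difference by 3.01, with the exact two-sided permutation p again at its floor of 0.333. Only the movement between groups can be read, since the probe sets differ in brightness.

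Cd40, the receptor for the T cell's CD40 ligand, did not pass in any comparison. Its arrays had 6.27 and 6.61 in M-CSF, 6.69 and 6.60 in FSL-1, and 6.41 and 6.73 in the combination. All groups overlapped, and the change with FSL-1 was 0.20 (95% interval -0.17 to 0.57, adjusted p = 0.554).

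**Figure D2:**
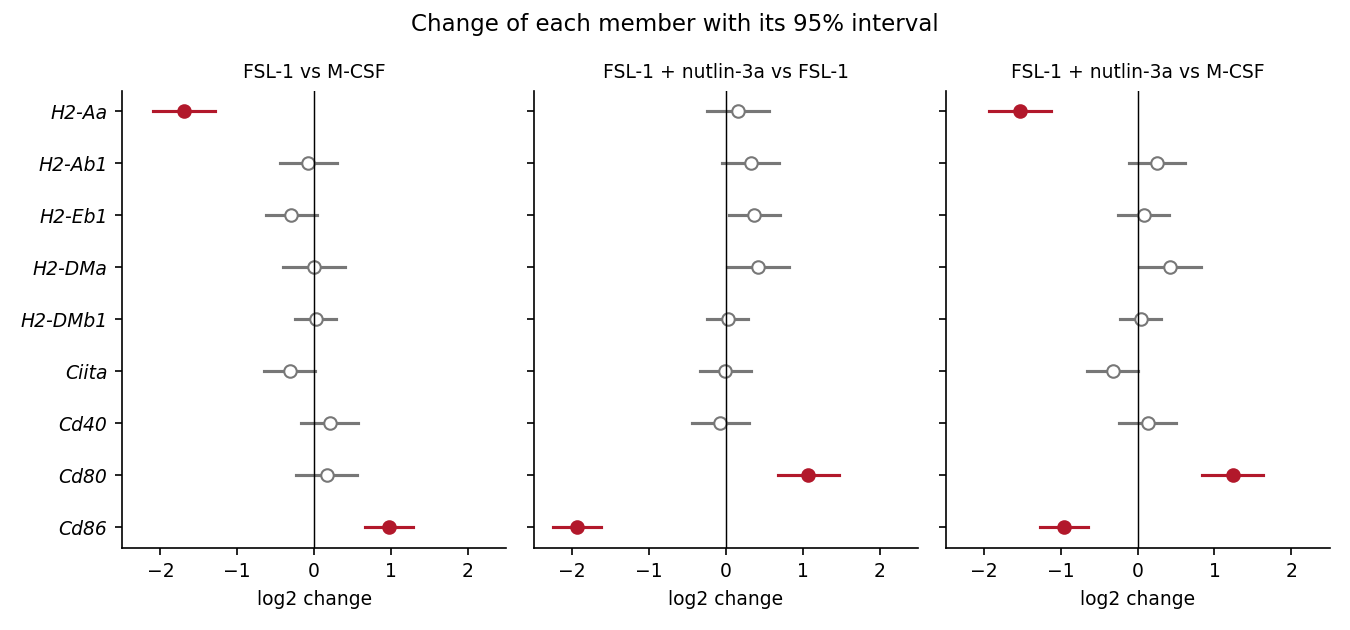
Log2 change of each member with its 95% interval from the limma fit, in the 3 comparisons. Filled points passed an adjusted p of 0.05: H2-Aa (-1.69) and Cd86 (0.98) with FSL-1, Cd86 (-1.94) and Cd80 (1.07) with nutlin-3a, and all 3 in the combination against M-CSF.

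With FSL-1 against M-CSF, 1 of 9 members rose and 1 fell, where 6.86% of all genes were called (3.91% rose and 2.95% fell). With nutlin-3a, 1 member rose and 1 fell, where 6.5% of all genes were called (2.38% rose and 4.12% fell). In the combination against M-CSF, 1 member rose and 2 fell, where 9.51% were called (4.58% rose and 4.94% fell). The groups did not overlap in 4, 6 and 5 of the 9 members, against 50.2%, 50.9% and 51.5% of all genes. The members' median log2 change was 0.00 with FSL-1, against -0.01 over all genes. It was 0.16 with nutlin-3a, against 0.02 over all genes, and 0.08 in the combination against M-CSF, also against 0.02. Members moved in both directions in each comparison. The comparisons share arrays, since each group enters a pair of them.

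Invariant chain processing and class II turnover were followed in 16 genes. With FSL-1, 1 rose and 2 fell (18.8% called, against 6.86% of all genes). The cathepsin Ctsl averaged 11.15 ± 0.04 on the M-CSF arrays, 11.89 ± 0.06 with FSL-1 and 10.98 ± 0.09 in the combination (n = 2 each). It rose by 0.74 with FSL-1 (adjusted p = 0.00957) and had -0.91 with nutlin-3a (adjusted p = 0.00444). Cd83, a membrane protein that protects class II and CD86 from turnover, fell by 1.01 with FSL-1, from 7.82 ± 0.01 to 6.81 ± 0.09 (adjusted p = 0.00223). It stayed low with nutlin-3a (6.96 ± 0.06). The asparaginyl endopeptidase Lgmn had -0.53 (adjusted p = 0.0398). Cathepsin S (Ctss), which makes the last cut in the invariant chain, and the thiol reductase Ifi30 had 0.10 and 0.02.

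With nutlin-3a, 2 of these 16 genes rose and 1, Ctsl, fell (18.8% called, against 6.5% of all genes). Marchf1 encodes a membrane ubiquitin ligase whose known targets include class II and CD86 protein. It had 6.57 and 6.30 in M-CSF, 6.21 and 6.28 in FSL-1, and 7.33 and 7.14 in the combination. Both nutlin-3a arrays were above the other 4, and the change was 0.99 (SE 0.138, limma adjusted p = 0.00641), a call lost when either FSL-1 array was dropped. The aminopeptidase cathepsin H (Ctsh) had 0.88 (adjusted p = 0.0149), a call kept only without combination replicate 1. In the combination against M-CSF, Ctsh (1.13), Marchf1 (0.79) and Spi1 (0.64), the gene of the myeloid factor PU.1, rose and Cd83 (-0.86) fell. That is 25.0% called, against 9.51% of all genes. Without 1 of the compared arrays the Ctsl calls were lost too: the one with FSL-1 without M-CSF replicate 1 or either FSL-1 array, the one with nutlin-3a without FSL-1 replicate 2. The Lgmn call was lost without any 1, that of Spi1 without either M-CSF array or combination replicate 2, and that of Marchf1 against M-CSF without M-CSF replicate 2 or combination replicate 1.

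Among 24 measured genes of class II transcription, 2 fell with FSL-1 and 0 rose (8.33% called, against 6.86% of all genes). The median change was -0.28, against -0.01 over all genes. Irf4, a lymphoid and myeloid interferon regulatory factor, fell by 1.19, from 5.74 ± 0.06 to 4.55 ± 0.11 (adjusted p = 0.00243). The latter level lies under the median of all genes. Irf1, which drives the interferon-inducible Ciita promoter, fell by 0.56 (adjusted p = 0.0464). The DNA-binding subunit Rfx5 had -0.42 with FSL-1 (adjusted p = 0.093) and rose by 0.60 with nutlin-3a (adjusted p = 0.0301), the single gene of the list that passed there. Its partners Rfxap and Rfxank had -0.21 and -0.25 with FSL-1, and Irf8 had -0.50 (adjusted p = 0.109). In the combination against M-CSF, Irf4 fell (-1.17) and the NF-Y subunit Nfya rose (0.50, adjusted p = 0.0311). The shares called were 4.17% with nutlin-3a and 8.33% in the combination against M-CSF, where 6.5% and 9.51% of all genes were called. The calls of Irf1, Rfx5 and Nfya were lost without any 1 of the 4 compared arrays, those of Irf4 were kept every time. Without M-CSF replicate 2, 3 genes of the list fell with FSL-1.

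Class I presentation shows peptides to CD8 T cells. Of its 20 measured genes, 1 rose with FSL-1, 1 fell with nutlin-3a and 0 passed in the combination against M-CSF. These are 5.0%, 5.0% and 0%, against 6.86%, 6.5% and 9.51% of all genes. The gene that passed was Nlrc5, the class I counterpart of Ciita. It had 6.06 ± 0.16 on the M-CSF arrays, 6.68 ± 0.05 with FSL-1 and 6.13 ± 0.04 in the combination (n = 2 each). Its changes of 0.62 (adjusted p = 0.0249) and -0.55 (adjusted p = 0.0426) were both lost without any 1 of the 4 compared arrays. The chains H2-K1 and B2m had 0.19 and 0.08 with FSL-1, and the peptide transporter Tap1 0.05. Without combination replicate 1, 1 class I gene fell against M-CSF.

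Other ligands that steer T cells were read beside the B7 members. Of 31 measured costimulatory and coinhibitory ligands, adhesion partners and cytokines, 9 rose and 1 fell with FSL-1, with a median change of 0.28. That is 32.3% called, against 6.86% of all genes. Tnfsf4, the ligand of OX40, had 3.84 and 4.44 in M-CSF, 6.30 and 6.21 in FSL-1, and 7.48 and 7.41 in the combination. It rose in each step, by 2.12 with FSL-1 (SE 0.187, adjusted p = 0.00064) and by 1.19 with nutlin-3a (adjusted p = 0.0113). Its M-CSF mean of 4.14 lies under the 4.25 median of probe sets that name no gene, so the size of its change from M-CSF starts from a level not shown to be above background. The inhibitory ligand Cd274, known as PD-L1, had 8.10 and 7.86 in M-CSF, 9.52 and 9.42 in FSL-1, and 9.0 and 9.30 in the combination. It rose by 1.49 with FSL-1 (adjusted p = 0.00113), and nutlin-3a moved it by -0.32 (adjusted p = 0.266). Cd200, which restrains myeloid cells through its receptor, rose by 2.20 and Cd276, or B7-H3, by 1.08. The M-CSF mean of Cd200, 4.49, lies under the median of all genes and not far above 4.25.

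Pvr, the ligand of DNAM-1 and TIGIT, rose by 1.35 with FSL-1 (adjusted p = 0.000495) and had -0.91 with nutlin-3a (adjusted p = 0.00408). Tnfsf18, the ligand of GITR, had 3.19 and 3.60 in M-CSF, 4.70 and 4.72 in FSL-1, and 3.39 and 2.80 in the combination. It rose by 1.31 with FSL-1 and returned with nutlin-3a (-1.61, adjusted p = 0.00489), at levels under the median of probe sets that name no gene for 4 of its 6 arrays. Icosl, the ligand of ICOS, fell by 0.80 with FSL-1 (adjusted p = 0.00827), from 7.99 ± 0.07 to 7.19 ± 0.13. The others that rose were Tnfsf15 (1.02), Tnfsf9 (0.87) and Slamf7 (0.57). The cytokine Il10, which lowers class II display, had 0.09.

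With nutlin-3a, 1 of the 31 rose (Tnfsf4) and 3 fell (Tnfsf18, Pvr and Slamf7 at -0.54). In the combination against M-CSF, 7 rose and 0 fell: Tnfsf4 (3.30), Cd200 (1.70), Cd276 (1.29), Cd274 (1.17), the adhesion molecule Icam1 (0.80), Nectin2 (0.74) and Il23a (0.65). The shares called were 12.9% and 22.6%, against 6.5% and 9.51% of all genes. The M-CSF mean of Il23a, 4.11, also lies under 4.25. The FSL-1 calls of Tnfsf4, Cd274, Cd200, Cd276 and Pvr were kept without any 1 of the 4 compared arrays, as were the nutlin-3a calls of Tnfsf18 and Pvr. The nutlin-3a call of Tnfsf4 was lost without any 1 of them, at changes of 1.14 to 1.23, and so were both calls of Slamf7 and the call of Tnfsf15. The FSL-1 calls of Tnfsf18 and Tnfsf9 were lost without M-CSF replicate 1 or either FSL-1 array, and leaving out any of these arrays brought the 9 genes that rose to 5. Icosl no longer passed when replicate 1 of M-CSF or of FSL-1 was dropped. Against M-CSF, Il23a was lost without M-CSF replicate 1 or either array of the combination, and Nectin2 without M-CSF replicate 1.

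**Figure D3:**
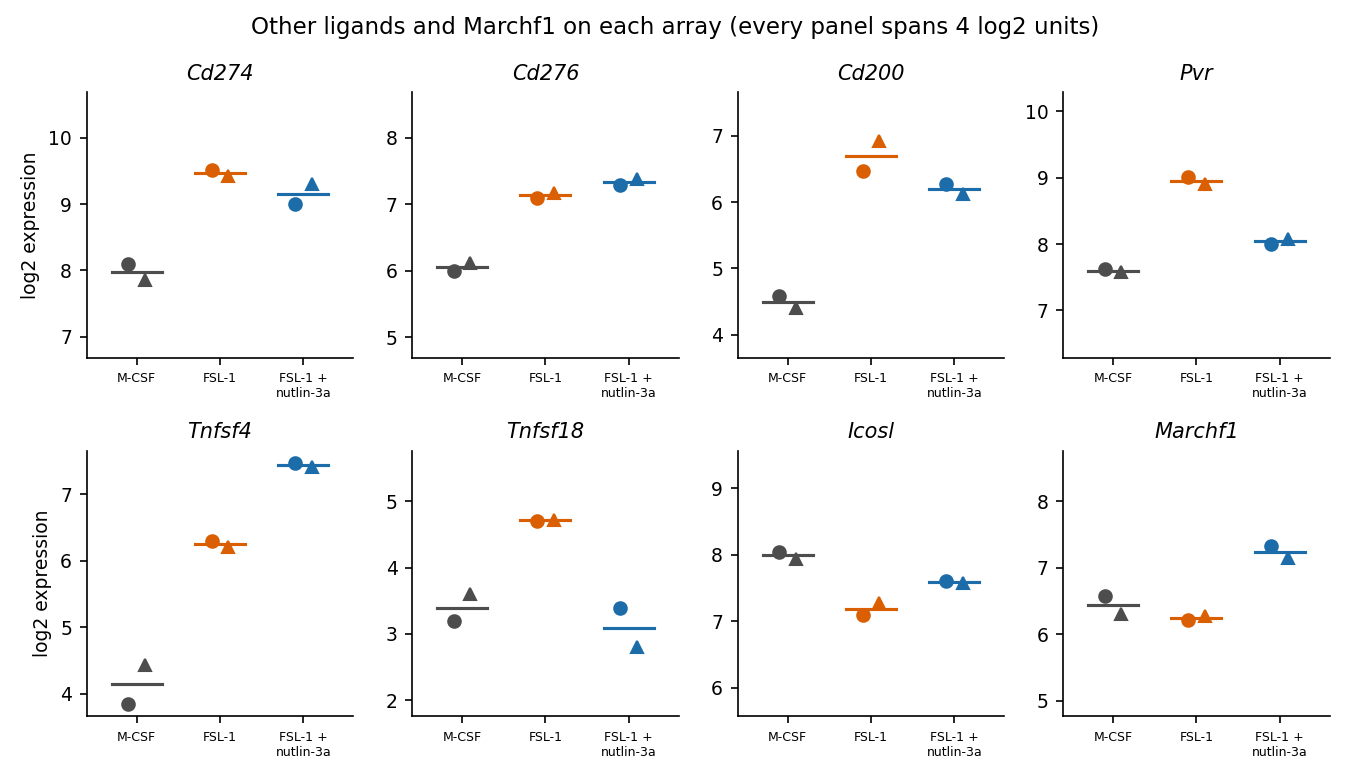
Log2 expression of 7 T cell ligands and of Marchf1 on each of the 6 arrays, with replicate 1 as circles, replicate 2 as triangles and lines at group means (n = 2). Cd274, Cd276 and Cd200 are high in both FSL-1 groups, Pvr and Tnfsf18 peak in FSL-1 alone, Tnfsf4 is highest with nutlin-3a (7.41 and 7.48) and Marchf1 is high with nutlin-3a (7.14 and 7.33).

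CD40 signalling genes were followed beside Cd40 itself. Of 11 measured, 3 rose and 1 fell with FSL-1, and 0 rose and 2 fell with nutlin-3a. These are 36.4% and 18.2% called, against 6.86% and 6.5% of all genes. The inhibitory deubiquitinase Tnfaip3 had 6.28 and 6.29 in M-CSF, 7.71 and 7.65 in FSL-1, and 7.17 and 6.99 in the combination. It rose by 1.4 with FSL-1 (adjusted p = 0.000505) and had -0.60 with nutlin-3a (adjusted p = 0.0262). The adapter Traf1 followed with 0.93 and -0.86, Birc3 rose by 0.56 and Traf6 fell by 0.71 with FSL-1. These genes also answer to other NF-kB inputs. The FSL-1 call of Tnfaip3 and its call against M-CSF (0.79) were kept without any 1 of the 4 compared arrays. Its nutlin-3a call, that of Birc3 and that of Traf6 against M-CSF (-0.62) were each lost without any 1. Traf1 lost its FSL-1 call without replicate 2 of M-CSF or replicate 1 of FSL-1, which left 1 gene that rose. Its nutlin-3a call was lost when an FSL-1 array or combination replicate 1 was dropped, and the FSL-1 call of Traf6 without M-CSF replicate 1 or either FSL-1 array.

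**Figure D4:**
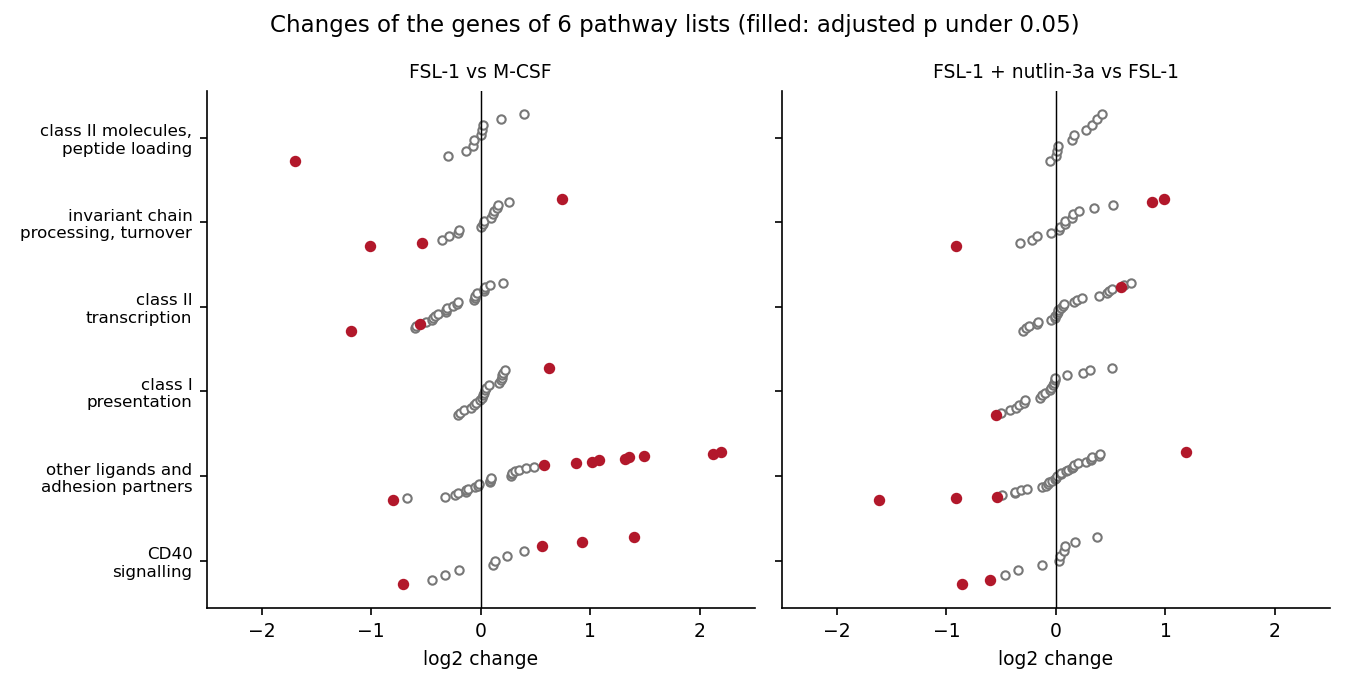
Log2 change of each measured gene of the 6 pathway lists, class II members included, with FSL-1 against M-CSF (left) and with nutlin-3a added to FSL-1 (right). Filled points passed an adjusted p of 0.05. On the left 9 of the 31 other ligands and adhesion partners rose. Of the 10 genes of class II molecules and peptide loading, H2-Aa alone passed there, at -1.69 (10.0% called, against 6.86% of all genes).

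Over the 6 lists, 106 measured genes are not members. With FSL-1, 14 rose and 6 fell (18.9% called, against 6.86% of all genes). With nutlin-3a, 4 rose and 7 fell (10.4% against 6.5%). In the combination against M-CSF, 12 rose and 3 fell (14.2% against 9.51%). The lists were chosen with earlier results of these data known, so these shares are descriptions. The dim filter kept 89 of the 106 genes but 11709 of the 22180 genes in all. With it, 16 of the 89 rose and 15 fell with FSL-1, where 23.1% were called. When each of the 4 compared arrays was left out, 8 of the 20 FSL-1 calls, 2 of the 11 nutlin-3a calls and 9 of the 15 calls against M-CSF were kept every time. These counts moved with the settings, as did the share of all genes called. With nutlin-3a, eBayes with trend and robust gave 14 that rose and 12 that fell, where 12% of all genes were called. Leaving dim genes out gave 15 and 10 of the 89 genes that remained, where 22.4% were called, and repeated quantile normalization 8 and 6, where 6.76% were called. Without 1 compared array, 0 to 2 rose and 2 to 4 fell, where 1.59% to 2.83% were called.

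Genes whose values followed a member most closely were sought among the 961 genes with an SD of at least 0.5 over the 6 arrays. Closest to H2-Aa were Stard9, the cytokine receptor Lifr and the neonatal Fc receptor Fcgrt (Pearson r = 0.997 each). Fcgrt averaged 11.29 on the M-CSF arrays, 9.80 with FSL-1 and 9.98 in the combination as group means. Closest to Cd80 were Ctsh (r = 0.988), which is on the class II processing list, 9230114K14Rik (0.986) and D630023F18Rik (0.983). Closest to Cd86 were Cdr2 (0.996), the stress protein Nupr1 (0.989) and Edil3 (0.987). Each value rests on 6 arrays in 3 groups.

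Professional antigen-presenting cells other than macrophages usually carry more class II, so their markers were read on the same arrays. Of 13 dendritic cell markers, 7 were under the median of all genes in every group, among them Flt3, Zbtb46 and Xcr1. The list averaged 5.65 to 5.75 on the M-CSF arrays, 5.81 to 5.85 with FSL-1 and 5.66 to 5.70 in the combination. Cd209a (8.80, 9.13 and 8.94) and Bst2 (11.14, 11.95 and 11.86) had group means well above that median. Of 11 B cell markers, 9 were under it, among them Pax5, Ms4a1 and Cd79a, and the list averages were 4.45 to 4.50, 4.46 to 4.58 and 4.58 to 4.59. With FSL-1, 2 dendritic cell markers rose (Bst2 and Ccr7) and 0 fell, and the B cell marker Cd79b rose. With nutlin-3a, 1 dendritic cell marker rose and 2 fell. Itgax, the CD11c chain also found on macrophages, rose by 0.88 (adjusted p = 0.0123), while Cd24a had -1.08 (adjusted p = 0.0167) and Kmo -0.82 (adjusted p = 0.0234). Among the 11 macrophage markers, 3 fell and 0 rose with nutlin-3a. These were Fcgr1 (-1.58), Cd14 (-1.12) and C1qa (-1.03). The change was positive in 4 of the 11, and Mertk (0.55), Csf1r (0.40) and C1qb (-0.002) did not pass. With FSL-1, 2 macrophage markers rose, Itgam by 0.74 (adjusted p = 0.00987) and Adgre1 by 0.56 (adjusted p = 0.0253), and 1 fell, Csf1r (-0.87, adjusted p = 0.00858). Fibroblast markers averaged 5.13 to 5.22 with M-CSF, 5.47 and 5.82 on the FSL-1 arrays, and 5.12 to 5.19 in the combination, and 2 of 10 rose with FSL-1 (Acta2 and Vcam1). Neutrophil markers averaged 4.56 to 4.59, 5.08 to 5.09 and 4.95 to 5.00, and 3 of 11 rose with FSL-1. With FSL-1, 15.4% of dendritic cell, 9.09% of B cell and 27.3% of macrophage markers were called, against 6.86% of all genes. The share was 20.0% for fibroblast and 27.3% for neutrophil markers. With nutlin-3a it was 23.1% for dendritic cell and 27.3% for macrophage markers, against 6.5% of all genes. The part of other cell types in the members' changes was not tested.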

How the data were processed

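Per the labels, RNA of sorted cells went through NuGEN PicoSL whole-transcriptome amplification before hybridisation, on 6 arrays in 3 groups of 2. The deposited log2 values, 1 for each probe set, are the authors' RMA output. The submitters' processing notes name Affymetrix Expression Console 1.4. Its quantile step can mask a shift common to most genes. The sources used here name no genome build for the arrays. Of 34390 probe sets, 23521 name 1 gene in the platform annotation, 1814 several and 9055 none. The probe set with the highest mean was kept for each of 22180 genes, and Entrez identifiers changed 0 symbols.

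One limma 3.58.1 model (R 4.3.3, lmFit and eBayes, 3 residual and 4.88 prior degrees of freedom) was fitted to all genes and arrays. The number of arrays limits precision. The script was checked on simulated data with known changes from M-CSF to FSL-1. It called 7.01% of the 1.5-fold, 54.9% of the 2-fold and 90.5% of the 4-fold changes. A gene that did not pass is therefore not shown to be unchanged. The members and gene lists were chosen with earlier results of these data known. Named beside the members are up to 4 called genes of each list and comparison by p, a fixed set, and the 3 genes with the most similar pattern for each member called. Tnfsf9, Tnfsf15, Icam1, Nectin2, Il23a, H2-K1, B2m, Tap1 and the marker genes fall outside this rule and were chosen after their values were seen. Listed genes without such a probe set are not analysed here. Same-numbered replicates did not deviate together (correlations -0.188, 0.0175 and -0.0248), so they were not paired. The replicate number as a block was an alternative. The 9 alternatives are given in the closing section. Exact permutation tests used scipy 1.17.1, and figures matplotlib 3.10.9.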

Additional observations from a re-analysis of the deposited data

How the results depend on the processing

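The calls of H2-Aa, Cd86 and Cd80 and their directions were the same under eBayes with trend and robust, repeated quantile normalization, centring, the mean of probe sets, the dim filter, fits on the compared groups alone, array weights and the replicate number as a block. Leaving out 1 array gave 0 to 1 members that rose with FSL-1 and 0 to 1 with nutlin-3a. With the block, 1 member rose and 1 fell with FSL-1, 1 and 1 with nutlin-3a, and 1 rose and 2 fell against M-CSF. Crossing the M-CSF numbers, added after seeing the data, gave the same member counts, and 13 and 5 of the other pathway genes with FSL-1, 5 and 5 with nutlin-3a, and 12 and 4 against M-CSF.

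Of the 106 other pathway genes, trend and robust gave 15 that fell with FSL-1, 14 that rose and 12 that fell with nutlin-3a, and 21 that rose and 16 that fell against M-CSF. All genes called were then 12.4%, 12% and 15%. The dim filter, which kept 89 of the 106, gave 15 that fell with FSL-1, 15 that rose with nutlin-3a, and 19 and 13 against M-CSF, with 23.1%, 22.4% and 28.4% of all genes called. Repeated quantile normalization gave 10, 8 and 5 for those that fell with FSL-1, rose with nutlin-3a and fell against M-CSF. Leaving out 1 compared array gave 6 to 9 that rose and 2 to 7 that fell with FSL-1, 0 to 2 and 2 to 4 with nutlin-3a, and 8 to 10 and 2 to 3 against M-CSF.

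Signs turned in some uncalled members. With FSL-1, H2-DMa had -0.024 and H2-DMb1 -0.0017 after repeated quantile normalization, and -0.031 and -0.013 after centring. Ciita had 0.00032 with nutlin-3a after the former. Dropping single arrays gave, with FSL-1, -0.205 to 0.208 for H2-DMa (also -0.049), -0.045 to 0.084 for H2-DMb1 (also -0.021), -0.079 to 0.414 for Cd80 and up to 0.051 for H2-Ab1 (from -0.198). With nutlin-3a it gave -0.043 to 0.086 for H2-DMb1, -0.232 to 0.084 for Cd40 and -0.18 to 0.164 for Ciita (also 0.023). Against M-CSF it gave -0.041 to 0.299 for Cd40 (also -0.029) and -0.089 to 0.242 for H2-Eb1. The group of a dropped array keeps 1 array, assumed to vary like the others.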

Other observations

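The T cell marker list held some genes that are bright on these arrays. Which cells carried these transcripts was not tested. Cd28, the receptor that CD80 and CD86 engage on T cells, had 9.08 and 9.09 in M-CSF, 7.71 and 7.81 in FSL-1, and 7.01 and 7.01 in FSL-1 + nutlin-3a. The groups did not overlap, and Cd28 fell by 1.32 with FSL-1 (limma adjusted p = 0.000495) and by 0.75 more with nutlin-3a (adjusted p = 0.00884). Cd4, the coreceptor that binds class II, had 10.75 and 10.44 in M-CSF, 9.51 and 9.68 in FSL-1, and 10.18 and 10.29 in FSL-1 + nutlin-3a. It fell by 1.01 with FSL-1 (adjusted p = 0.00636) and rose by 0.64 with nutlin-3a (adjusted p = 0.0405). Il7r rose by 1.44 with FSL-1 (adjusted p = 0.000499). The T cell receptor complex genes Cd3e, Cd3g and Cd3d stayed between 3.67 and 5.22 on all 6 arrays, and 9 of the 12 measured T and NK cell markers were under the median of all genes in every group. The list averaged 5.57 to 5.63 in M-CSF, 5.39 to 5.51 with FSL-1 and 5.48 to 5.49 with nutlin-3a added. Cd28, Cd4 and Il7r were singled out after their values were seen.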
